A study of Mus musculus with 13 samples.

Results

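Control cells of 4T1, a mouse mammary tumor line, were profiled by chromatin immunoprecipitation and sequencing (ChIP-seq) for histone H3 trimethylated at lysine 4 (H3K4me3) and at lysine 27 (H3K27me3). Every gene listed for either mark was placed in 1 of 4 classes. The H3K4me3 list holds peaks within 4 kb of a gene start, and the H3K27me3 list holds islands (broad peaks) that meet a gene body. A gene in the first list alone was called H3K4me3 only, and a gene in the second list alone was called H3K27me3 only. Genes in both lists were split by whether the 2 peaks shared at least 1 bp ("both, overlapping") or not ("both, apart"). The classes took in 16701 genes, of 18562 genes found in any of the 6 peak lists of the series.

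The cells came from a spontaneous mammary tumor of a BALB/cJ mouse and carried a non-targeting control guide RNA (sg-Ctrl). Each mark had 1 library, so no replicate error was available and no test between conditions was possible. Intervals below are 95% intervals over genes or reads and cover counting error only. The other lists used here are NUP210 and NPC (an antibody against several nuclear pore proteins) in sg-Ctrl cells, and both histone marks in Nup210 knockout (KO) cells, made with CRISPR/Cas9. The KO cells are 1 clone, N13, grown from the same line. Each of these conditions also had 1 library. Reads in the listed peaks numbered 26236314 for H3K4me3 and 7719297 for H3K27me3.

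H3K4me3 is laid down by COMPASS (SET1 and MLL) complexes around the starts of genes that are active or ready for transcription. H3K27me3 is laid down by Polycomb repressive complex 2 and spreads over genes that are kept silent, among them regulators of development that belong to other lineages. Promoters that carry both marks are known as bivalent and are best known from stem cells and from regulators of cell fate. A ChIP library from many cells cannot tell both marks on the same allele from each mark in a different cell.

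H3K4me3 alone was the most frequent state, with 11730 genes (70.2% of the listed genes, 95% Wilson interval 69.5-70.9%). H3K27me3 alone was found on 4248 genes (25.4%, 24.8-26.1%). Both marks were listed for 723 genes (4.33%, 4.03-4.65%), of which 298 had overlapping peaks and 425 had peaks apart. Thus 41.2% of the genes with both marks had overlapping peaks (37.7-44.8%). Genes with both marks made up 5.81% of the H3K4me3 list and 14.5% of the H3K27me3 list. Among 21900 protein-coding genes of the RefSeq annotation, 49.6% were H3K4me3 only, 16.7% H3K27me3 only, 1.22% both overlapping and 1.68% both apart, which is the background for the family counts below. Any H3K4me3 was listed for 52.5% of them, any H3K27me3 for 19.6% and both for 2.9%. The remaining 6741 protein-coding genes were in neither list.

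Neighbouring genes often share a peak, so genes are not independent units. A peak listed also under another gene was found for 33.7% of the H3K4me3-only genes and 33.4% of the H3K27me3-only genes. An island that meets the intergenic DNA before a gene start but not the gene body is not in the list, so an H3K4me3 peak facing such an island is counted here as H3K4me3 only.

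Markers of cell identity were read first. Of 10 mammary epithelial markers, 9 were H3K4me3 only, from 9.85-fold over IgG (Krt19) to 106-fold (Krt8). Among them were Elf3 (10.5-fold), Cdh1 (25.9-fold), Epcam (2538 reads against 59 IgG reads, 40.5-fold) and Grhl2 (71.2-fold). The median of all H3K4me3-only genes was 54.7-fold. The tenth, the epithelial splicing regulator Esrp1, was both overlapping. Of 8 luminal and basal regulators and keratins, 4 were H3K4me3 only (Gata3, Foxa1, Esr1 and the keratin gene Krt14). The progesterone receptor gene Pgr and Elf5 were H3K27me3 only, and the keratin gene Krt5 and Trp63 were in neither list. Gata3, a luminal transcription factor, had an H3K4me3 domain of 24200 bp with 25256 reads against 202 IgG reads (118-fold). Mesenchymal and fibroblast markers were mixed: 3 of 9 were H3K4me3 only (Vim, Pdgfra and Col1a1), 3 were H3K27me3 only (Zeb1, Col3a1 and Dcn), Twist1 was both overlapping and 2 were in neither list. None of the 20 blood, endothelial, adipocyte, neuronal and muscle markers was H3K4me3 only. H3K27me3 alone was listed for 2 of 5 blood cell markers (Ptprc and Cd3e), 1 of 4 endothelial (Tek), 0 of 3 adipocyte, 3 of 4 neuronal (Snap25, Syt1 and Neurod1) and 1 of 4 muscle markers (Actc1), and all the others were in neither list. Ptprc, which encodes the leukocyte surface phosphatase CD45, had 10827 H3K27me3 reads against 3315 IgG reads (3.86-fold) and 99.7% of its body under islands.

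Promoter sequences of 4 genes, picked after the values were seen, show how different the promoters within and between classes can be. They are RefSeq sequences of build GRCm38.p6, from 250 bases before to 50 bases after the annotated start, written 5′ to 3′ with each CG dinucleotide in capitals. Rpl24, a cytosolic ribosomal protein gene with H3K4me3 only, is shown for the widest H3K4me3 of its family (chr16:55966025-55966324, plus strand). Bcl11a, a zinc finger transcription factor gene, is shown for the longest overlap of both marks among genes with both folds of 2 or more (chr11:24080445-24080744, plus strand). Hoxd1, a homeobox gene with H3K27me3 only, is shown for the highest H3K27me3 fold among developmental factors whose start is covered by an island (chr2:74762730-74763029, plus strand). Olfr552, an olfactory receptor gene with H3K27me3 only, is shown for the highest H3K27me3 fold of its family (chr7:102604106-102604405, plus strand). For Hoxd1 and Olfr552, at least 10 IgG reads in the island were required.
Rpl24: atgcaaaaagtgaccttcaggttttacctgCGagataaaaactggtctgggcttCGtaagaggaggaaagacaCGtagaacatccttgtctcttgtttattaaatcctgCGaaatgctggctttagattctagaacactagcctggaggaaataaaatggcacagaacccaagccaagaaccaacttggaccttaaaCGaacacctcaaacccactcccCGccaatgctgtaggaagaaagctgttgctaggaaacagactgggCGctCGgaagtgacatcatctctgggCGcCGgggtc
Bcl11a: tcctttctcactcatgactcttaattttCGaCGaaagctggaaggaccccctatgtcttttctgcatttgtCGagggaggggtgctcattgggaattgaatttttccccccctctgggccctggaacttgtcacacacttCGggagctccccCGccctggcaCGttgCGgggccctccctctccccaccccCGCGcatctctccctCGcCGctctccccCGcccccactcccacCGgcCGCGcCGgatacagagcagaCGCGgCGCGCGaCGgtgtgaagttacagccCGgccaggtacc
Hoxd1: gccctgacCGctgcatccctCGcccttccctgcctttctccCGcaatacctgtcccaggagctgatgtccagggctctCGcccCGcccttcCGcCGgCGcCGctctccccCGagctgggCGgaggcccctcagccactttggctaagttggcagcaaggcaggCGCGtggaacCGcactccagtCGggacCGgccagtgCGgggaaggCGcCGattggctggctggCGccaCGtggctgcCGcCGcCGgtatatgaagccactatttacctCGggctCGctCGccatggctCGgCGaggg
Olfr552: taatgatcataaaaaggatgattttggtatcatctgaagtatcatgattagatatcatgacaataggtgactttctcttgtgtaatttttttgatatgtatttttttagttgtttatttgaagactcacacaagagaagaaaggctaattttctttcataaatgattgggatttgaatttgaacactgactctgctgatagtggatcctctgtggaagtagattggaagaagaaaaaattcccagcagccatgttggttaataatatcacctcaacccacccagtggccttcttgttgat

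The Hoxd1 promoter held 29 CG dinucleotides and the Bcl11a promoter 23, while that of Rpl24 held 10 and that of Olfr552 held 0. At least 1 CG was present in 94.6% of the 32851 promoters of the table, with a median of 7. Rpl24 had 9797 H3K4me3 reads against 195 IgG reads (47.4-fold) over 13400 bp. Bcl11a had 3004 H3K4me3 reads against 56 IgG reads (50.6-fold) and 1202 H3K27me3 reads against 254 IgG reads (5.59-fold). Hoxd1 had 3629 H3K27me3 reads against 881 IgG reads (4.86-fold), and Olfr552 had 255 against 38 (7.93-fold), with 100% of each gene body covered. So a promoter rich in CG and a promoter without any stood in the same H3K27me3-only class. A comparison of CpG content between whole classes was void, because a promoter sequence was found for 79.9%, 76.3%, 70.5% and 73.4% of the protein-coding genes of the H3K4me3-only, H3K27me3-only, overlapping and apart classes, each under the 80% needed. CpG content was read instead by family, for families of at least 20 genes in a class with enough sequences. The ratio of observed to expected CpG had a median of 0.10 in 435 olfactory receptor promoters (quartiles 0 and 0.18) and 0.10 in 118 vomeronasal receptor promoters, both H3K27me3 only. Cytochrome P450 genes with H3K27me3 only had a median of 0.20 (24 promoters). In the H3K4me3-only class the medians were 0.66 for Zfp zinc finger genes (249 promoters) and between 0.78 for proteasome subunits (30 promoters) and 0.91 for splicing factors (37 promoters) in the other 8 families. Medians of the GC content of the same bases were 35.7%, 36.7% and 39.0% in the 3 H3K27me3-only families. In the 9 H3K4me3-only families they were 55.3% to 66.0%. No family had values in both classes, so these values compare families and not whole classes.

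H3K4me3 peaks were weaker and narrower on genes that also carried H3K27me3. The median fold over IgG of a gene's strongest H3K4me3 peak was 54.7 in the H3K4me3-only class (interval of the median 53.7-55.5), 33.1 in the overlapping class (27.8-41.2) and 39.4 in the apart class (34.2-41.9). Peaks without any IgG read take a fold computed by the authors from 0.25 reads. They made up 5.12% of the H3K4me3-only genes, 18.8% of the overlapping and 11.8% of the apart genes. With those peaks set to the fold that 3 IgG reads would give, the medians were 53.0, 26.0 and 33.0. Reads per kb of peak differed more, with medians of 575, 187 and 298. A fold below 10 was found for 2.61% of the H3K4me3-only genes, 19.1% of the overlapping and 16.0% of the apart genes. The summed width of a gene's H3K4me3 peaks had a median of 3800 bp in the H3K4me3-only class, against 2000 bp (interval 1800-2200) and 2200 bp (2200-2600) in the genes with both marks. A width of 5000 bp or more was reached by 30.04% of the H3K4me3-only genes, 9.06% of the overlapping and 13.2% of the apart genes.

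H3K27me3 differed less between classes in strength than in extent. The median fold of a gene's strongest island was 3.20 in the H3K27me3-only class (interval 3.15-3.25), 3.58 in the overlapping class (3.38-3.83) and 3.03 in the apart class (2.88-3.23), and reads per kb of island had medians of 31.0, 31.8 and 29.9. The widest island of a gene had a median of 25000 bp in the first 2 classes and 14000 bp in the apart class. Islands covered a median of 72.7% of the gene body in H3K27me3-only genes, 45.7% in overlapping and 23.5% in apart genes. The whole body was covered in 35.1% of the H3K27me3-only genes and in 3.06% of the apart genes. An island lay over a gene start in 59.1% of the H3K27me3-only genes (57.6-60.5%), in 87.9% of the overlapping genes (83.7-91.1%) and in 11.8% of the apart genes (9.04-15.2%). The shares of the overlapping and apart genes follow in part from the class rule. Overlapping genes have an island on an H3K4me3 peak listed within 4 kb of a start, and apart genes do not. An island of lower signal than IgG was the strongest one of 70 H3K27me3-only genes, 11 overlapping and 9 apart genes.

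**Figure D1:**
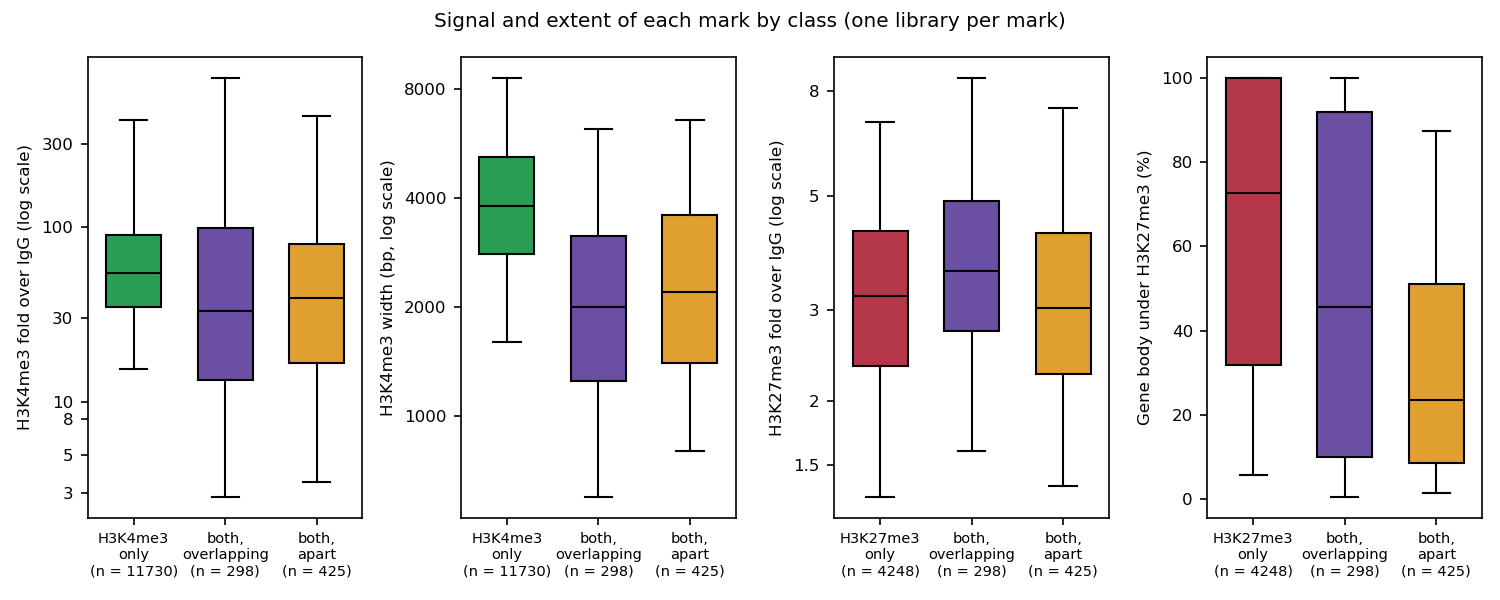
Fold over IgG and width of H3K4me3, and fold over IgG and share of the gene body of H3K27me3, in each class that carries the mark (boxes span the quartiles with the median as a line, whiskers run from the 5th to the 95th percentile, and the first 3 axes are logarithmic). H3K4me3 width falls from a median of 3800 bp to 2000 and 2200 bp in genes with both marks, while the H3K27me3 fold stays between medians of 3.03 and 3.58.

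The widest H3K4me3 of the H3K4me3-only class lay on the HoxA cluster, a row of homeobox genes that set position along the body axis. Hoxa2 and Hoxa4 shared a peak at chr6:52156801-52188400 with 21020 reads against 222 IgG reads (89.3-fold). Hoxa7 and the noncoding gene Mira shared the next one, at chr6:52192001-52218000, with 16362 against 181 reads (85.2-fold). Hoxa4 met both peaks, which gave it the largest summed width, 57600 bp. The highest deposited folds belonged to peaks without IgG reads. Cln3, a lysosomal membrane protein gene, and its neighbour Apobr shared such a peak with 3642 reads, at least 1144-fold over the 3 IgG reads that a count of 0 allows. Galnt11, a glycosyltransferase gene, had 3610 reads, Nhp2, a small nucleolar RNA-binding protein gene, 3471, and the DNA damage checkpoint gene Rad9a 3142, each against 0. Among peaks with at least 10 IgG reads, a condition added after the values were seen, the highest folds were on promoters shared by neighbours. Creb3 and Tln1, the latter encoding talin, which links integrins to actin, shared a peak of 4704 against 12 reads (370-fold). The small GTPase gene Rras and its neighbour Scaf1 shared one of 4973 against 13 reads (361-fold), and the ribosomal protein gene Rpl27a had 335-fold.

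The longest H3K27me3 cover in the H3K27me3-only class was on very long genes. Islands covered 1052547 bp (87.7%) of Prkg1, a cGMP-dependent protein kinase gene, and 1042885 bp (83.8%) of Cntn5, which encodes a neural adhesion protein. Long cover was also found on the polarity gene Pard3b (905284 bp) and the sperm axoneme gene Spag16 (754163 bp). The strongest island on these 4 genes was between 1.84-fold (Cntn5) and 6.35-fold (Pard3b). The highest folds were instead on small islands with few or no IgG reads. Spon1, an extracellular matrix gene, had an island of 117 reads against 0, at least 46.1-fold, and Emx2, a homeobox gene of forebrain and urogenital development, had 157 reads against 2. Of the other 3 genes ranked by fold, 9630028H03Rik (121 reads) and 1700113H08Rik (106 reads) had 0 IgG reads, and Gm19990 (121 reads) had 1. With at least 10 IgG reads, the highest were 3010001F23Rik (32.0-fold), the adaptor gene Clnk and the homeobox gene Hoxc9 (both 19.3-fold, on separate islands), the glutamate receptor gene Grid1 (17.5-fold) and Zmat4 (16.8-fold). Within the class, 53.7% of the genes had a strongest island between 2-fold and 4-fold, 26.0% between 4-fold and 8-fold and 3.44% of 8-fold or more.

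In the overlapping class the stretch shared by both marks was short. It had a median of 1200 bp (quartiles 800 and 2000), and H3K4me3 lay wholly inside an island in 191 of 298 genes (64.1%, 58.5-69.3%). Bcl11a shared 10400 bp. Esrp1 shared 7800 bp of an H3K4me3 domain of 3434 against 61 reads (53.1-fold) with H3K27me3 of 181 against 73 reads (2.93-fold). The noncoding gene 9330179D12Rik and Ccnd2, which encodes cyclin D2, met the same peaks, with 7000 bp shared, H3K4me3 of 1527 against 25 reads (57.6-fold) and H3K27me3 of 454 against 65 reads (8.25-fold). The longest 2 overlaps of all stood apart from these in their IgG reads. Sfi1 (14600 bp) had 963 H3K27me3 reads against 5245 IgG reads (0.22-fold), and the pseudogene Pisd-ps3 (10800 bp), placed on an unplaced contig, had 1040 against 7751 (0.16-fold). H3K4me3 on Sfi1 was 6104 against 4950 reads (1.16-fold). Genes were also ranked by the smaller of their 2 folds. Sema6a, a guidance cue gene, led with H3K4me3 of 321 against 10 reads (30.3-fold) and H3K27me3 of 153 against 10 (18.1-fold). It was followed by 1700006E09Rik (66.0-fold and 16.0-fold) and the adhesion gene Amigo2 (33.0-fold and 11.9-fold). Cited1, a transcriptional cofactor gene, and Gm14858 shared peaks of 112 H3K4me3 reads against 0 and 135 H3K27me3 reads against 14 (11.4-fold). Park2, the gene of the ubiquitin ligase parkin (17.0-fold and 11.2-fold), and Reck, a gene for an inhibitor of matrix metalloproteases (41.0-fold and 9.63-fold), joined them when 10 IgG reads were required.

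In the apart class the nearest peaks of both marks were a median of 9600 bp from each other (interval 7600-11600, quartiles 2800 and 29800, n = 421). The symbols of 4 further genes stand for several places in the genome and have no distance. The split between the classes at 1 shared bp had genes close to it on both sides, since the 5th percentile was 200 bp for the overlap and 200 bp for the gap. H3K4me3 covered a gene start and no island did so in 289 of the 421 genes (68.6%). Each mark covered a different start of the same gene in 23 genes (5.46%), all of them protein-coding. These 23 are named here after their values were seen. Nfia, a nuclear factor I gene, had H3K4me3 of 13209 against 308 reads (40.4-fold) at one start and H3K27me3 of 2381 against 610 (4.61-fold) at another, 195683 bp away. In the kinase gene Dclk1 the starts were 219232 bp apart (67.6-fold and 7.13-fold), and in Syne1, which encodes nesprin-1 of the nuclear envelope, 355985 bp apart (40.5-fold and 4.64-fold). The others were 4930558K02Rik, Atp13a4, Ctnna3, Dab2, Dctd, Dlc1, Etl4, Frmd4a, Gramd1c, Mcc, Msra, Mtm1, Pde4dip, Rapgef4, Rgs20, Sall2, Schip1, Sfmbt2, Sri and Tmem39a.

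The longest H3K27me3 cover in the apart class was found on Csmd3 (694989 bp), where H3K4me3 was weak at 71 against 46 reads (1.45-fold). The transcription factor gene Sox6 (383000 bp, H3K4me3 1.84-fold) and Erc2, a gene of the presynaptic active zone (369000 bp, 17.3-fold), came with it, as did Schip1 (372199 bp, 39.1-fold) and the catenin gene Ctnna3 (369000 bp, 55.8-fold). By the smaller of the 2 folds, Fam221b led with 347 H3K4me3 and 131 H3K27me3 reads, each against 0. Further down were the cilium gene Iqcg (60.0-fold and 18.7-fold), the adenylate kinase gene Ak8 (245 reads against 0, and 17.7-fold) and the checkpoint gene Rad17 (70.6-fold and 13.2-fold). With 10 IgG reads required, Rad17 led, and further down were Stk32c (66.3-fold and 8.46-fold), 9530026P05Rik (8.25-fold and 10.9-fold) and Schip1 (39.1-fold and 8.20-fold).

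**Figure D2:**
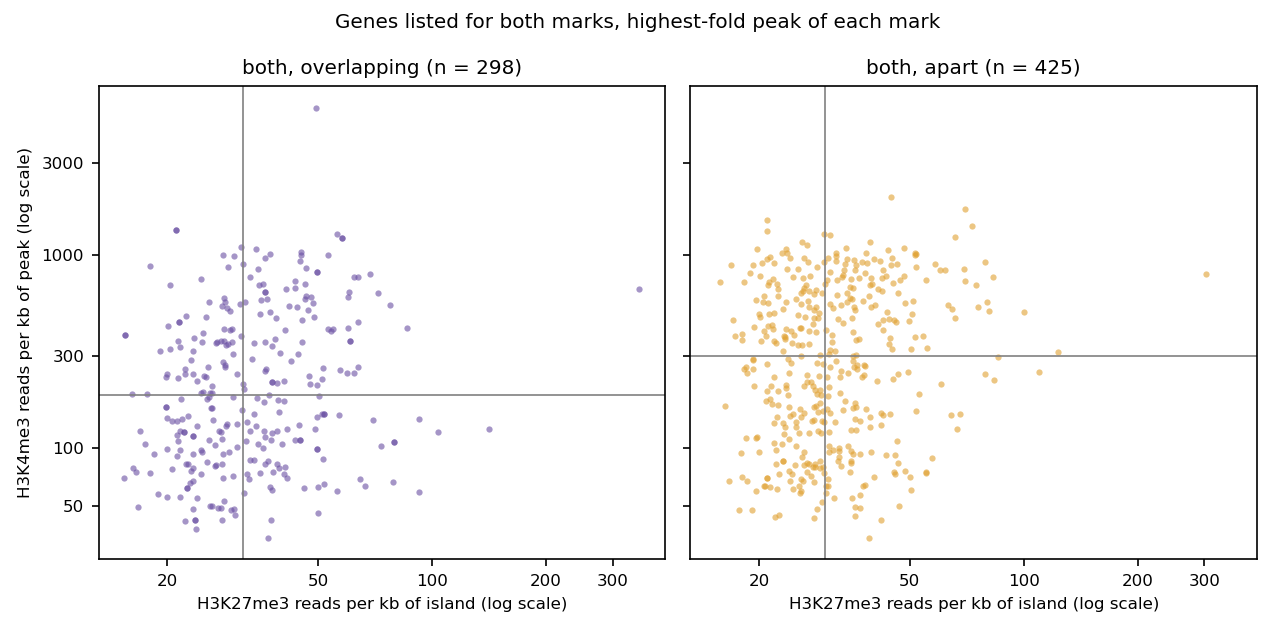
H3K27me3 reads per kb of island (x axis) and H3K4me3 reads per kb of peak (y axis) for genes with both marks, each point a gene, both axes logarithmic, with lines at the medians. The H3K4me3 median is 187 reads per kb with overlapping peaks and 298 with peaks apart, while the H3K27me3 medians are 31.8 and 29.9.

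Gene families fell on different sides. More members were H3K27me3 only than H3K4me3 only in 15 of the 46 families read, among them all 4 families of neuronal channels and receptors, both sensory receptor families, cadherins, clustered protocadherins, collagens, keratins, serpins, cytochrome P450 enzymes, Pax factors, neural basic helix-loop-helix factors and FGF ligands. With islands read only within 4 kb of the start, 12 families had this order, without FGF ligands (3 H3K27me3 only and 4 H3K4me3 only), cadherins (3 and 4) and collagens (10 and 12). In that window H3K27me3-only members fell from 16 to 4 for glutamate receptors and from 17 to 7 for GABA and glycine receptors. Clustered protocadherins fell from 38 to 17. Potassium channels fell from 35 to 14, against 13 H3K4me3 only, and voltage-gated sodium and calcium channels from 19 to 8, against 6. Olfactory receptors changed little, from 518 to 515. With an FDR of at most 0.01 for both marks, FGF ligands had 4 on each side. Housekeeping families were the reverse: of their 421 genes, 398 were H3K4me3 only and 7 H3K27me3 only, against 49.6% and 16.7% of all protein-coding genes.

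**Figure D3:**
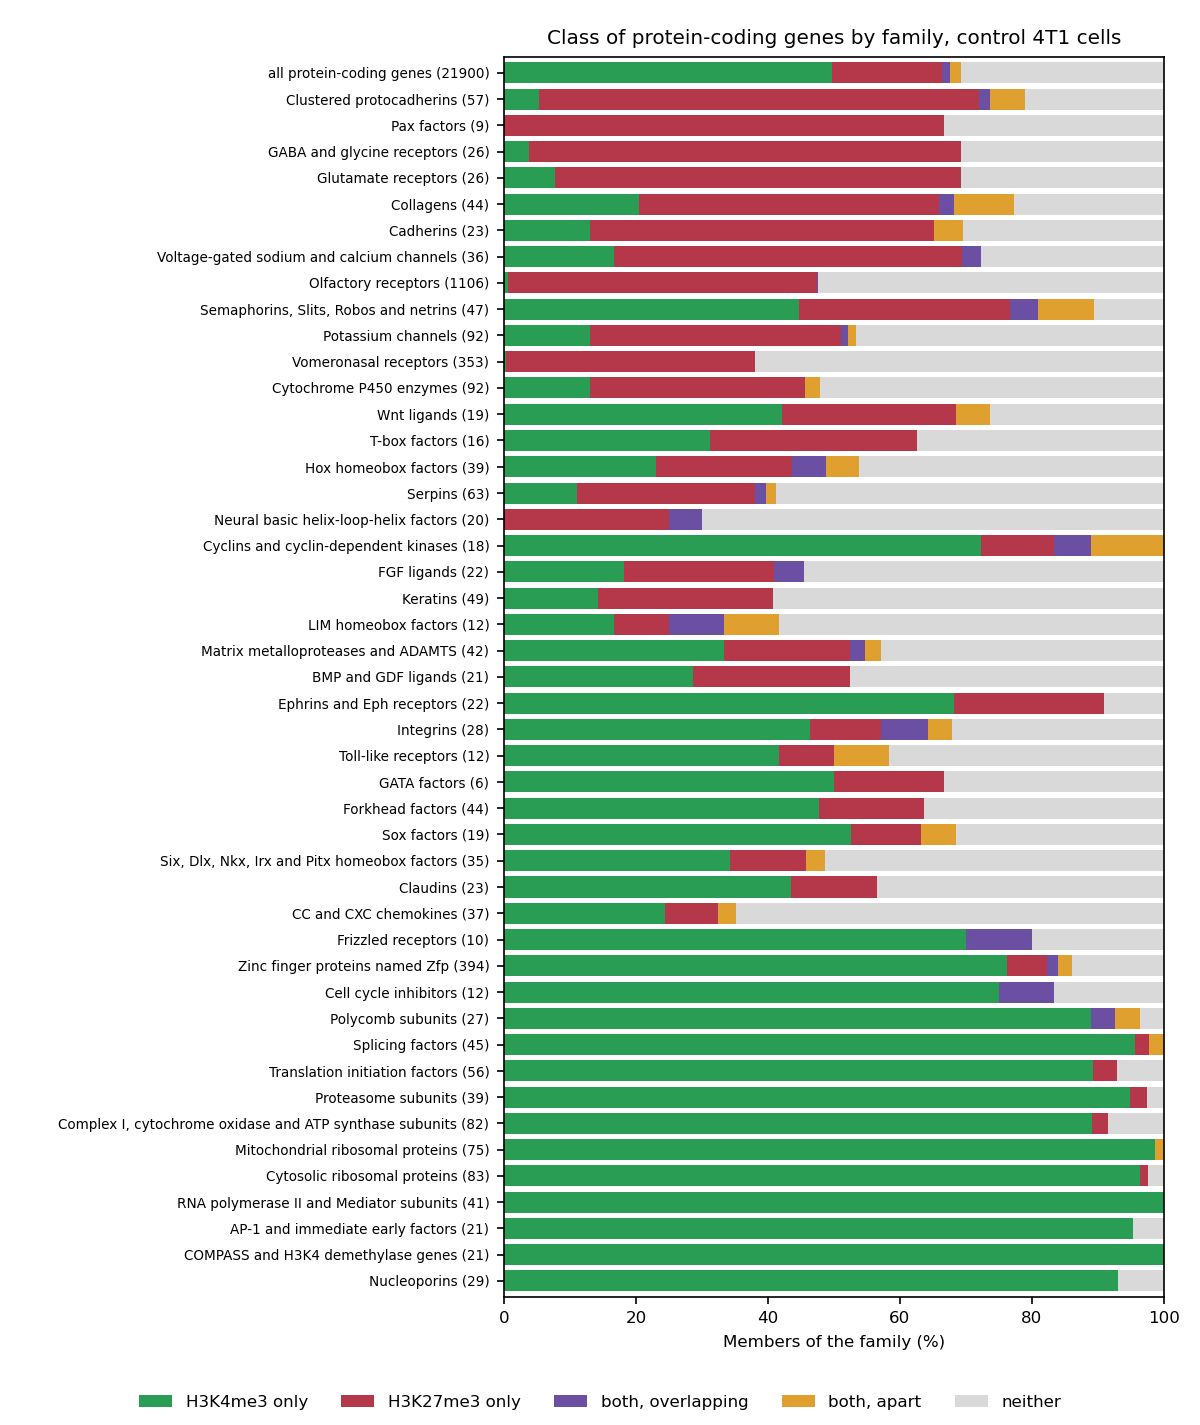
Share of the members of each family (number in parentheses) in each class, ordered by the share with any H3K27me3, with all protein-coding genes at the top. Clustered protocadherins reach 73.7% with any H3K27me3, and nucleoporins, COMPASS and H3K4 demethylase genes, AP-1 factors and RNA polymerase II and Mediator subunits have none.

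Developmental transcription factors were split, with 62 of 200 H3K4me3 only, 39 H3K27me3 only, 9 with both marks and 90 in neither list. None of 9 Pax genes, which direct organ and neural development, was H3K4me3 only, and 6 were H3K27me3 only, such as Pax3 with 3456 against 1210 reads (3.37-fold) over 87734 bp. Neural basic helix-loop-helix genes, which drive neuron formation, had 5 of 20 H3K27me3 only, including Neurog2 (568 against 181 reads, 3.71-fold), 1 both overlapping (Ascl4) and 14 in neither list. The T-box genes had 5 on each side: Eomes was H3K4me3 only (909 against 9 reads, 95.2-fold), and Tbx20 was H3K27me3 only (9049 against 2859 reads, 3.74-fold). Forkhead genes were close to the background of all protein-coding genes, with 21 of 44 (47.7%) H3K4me3 only, including the cell cycle factor Foxm1 (4759 against 26 reads, 173-fold), and 7 (15.9%) H3K27me3 only. Sox genes had 10 of 19 and 2, and the homeobox genes of the sine oculis, Dlx, Nkx, Irx and Pitx groups 12 of 35 and 4, with Irx2 under an H3K4me3 domain of 17600 bp. Of the 6 GATA genes 3 were H3K4me3 only (Gata2, Gata3 and Gata4), and Gata6 was H3K27me3 only. LIM homeobox genes had 2 of 12 H3K4me3 only and 1 H3K27me3 only, Lmx1a with 130 against 4 reads (38.4-fold), while Lhx4 was both overlapping and Lhx9 both apart.

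The 4 Hox clusters took different classes. In HoxA, 9 of 11 genes were H3K4me3 only, 1 was in neither list and Hoxa13 was both overlapping, with 87 H3K4me3 reads against 0 and 811 H3K27me3 reads against 197 (4.86-fold). In HoxB, 9 of 10 genes were in neither list. HoxC had 4 of 9 genes H3K27me3 only, among them Hoxc10 (174 against 30 reads, 6.85-fold). HoxD had 3 of 9 H3K27me3 only, Hoxd13 both overlapping, Hoxd3 and Hoxd12 both apart and 3 in neither list. The H3K4me3 peak shared by Hoxd12 and Hoxd13 was weak, at 48 against 29 reads (1.56-fold).

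Developmental signals had 61 of 141 genes H3K4me3 only, 35 H3K27me3 only and 9 with both marks. Wnt ligands had 8 of 19 H3K4me3 only and 5 H3K27me3 only, such as Wnt7a (1960 against 23 H3K4me3 reads, 80.3-fold) and Wnt2 (3370 against 805 H3K27me3 reads, 4.94-fold). Their Frizzled receptors had 7 of 10 H3K4me3 only and none H3K27me3 only, and Fzd1 was both overlapping. FGF ligands had 4 of 22 and 5, with Fgf20 at 3595 against 767 H3K27me3 reads (5.54-fold). BMP and GDF ligands had 6 of 21 and 5. Ephrins and Eph receptors, which act in cell contact and guidance, had 15 of 22 and 5, with Epha2 (3860 against 28 reads, 130-fold) on the H3K4me3 side and Epha6 (3474 against 840 reads, 4.88-fold) on the other. Semaphorins and the other guidance genes had 21 of 47 H3K4me3 only, 15 H3K27me3 only, 2 overlapping and 4 apart. The H3K27me3-only guidance genes were long, with a median length of 205778 bp.

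Neuronal channel and receptor genes were mostly H3K27me3 only or in neither list, with 87 of 180 H3K27me3 only and 21 H3K4me3 only. These counts read islands over the whole gene body, and fewer members were H3K27me3 only within 4 kb of the start. Glutamate receptors had 16 of 26 H3K27me3 only, such as Grin2b (122 against 18 reads, 8.00-fold) and Grm3 (1495 against 250 reads, 7.06-fold), with a median gene length of 405548 bp. The 2 with H3K4me3 only, Grik5 (365 reads) and Grin2d (325 reads), had peaks without IgG reads. GABA and glycine receptors had 17 of 26 H3K27me3 only, including Gabra3 (5.20-fold), and 1 H3K4me3 only, Gabbr1 (9.32-fold). Voltage-gated sodium and calcium channels had 19 of 36 H3K27me3 only. Scn2a1, a sodium channel gene, was both overlapping, with 11623 H3K27me3 reads against 2459 (5.58-fold) and 102 H3K4me3 reads against 8 (12.02-fold). Potassium channels had 35 of 92 H3K27me3 only, with Kcnd3 highest at 197 against 14 reads (16.6-fold), and 12 H3K4me3 only, with Kcnk5 at 2116 against 6 reads (332-fold).

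Adhesion and matrix genes had 97 of 266 members H3K27me3 only, 59 H3K4me3 only, 5 overlapping and 10 apart. Clustered protocadherins, which give neurons their surface identity, had 38 of 57 H3K27me3 only, many under the same islands. Cadherins had 12 of 23 H3K27me3 only, at a low median fold of 1.71, while Cdh1, the E-cadherin gene of epithelial junctions, was H3K4me3 only with 4533 against 165 reads (25.9-fold). Collagens had 20 of 44 H3K27me3 only, such as Col25a1 (163 against 30 reads, 6.42-fold), 9 H3K4me3 only, such as Col8a1 (7073 against 74 reads, 90.1-fold), Col14a1 overlapping and 4 apart. Integrins had 13 of 28 members H3K4me3 only, with Itgb1 at 14561 against 248 reads (55.3-fold), and 3 were H3K27me3 only. Keratins had 13 of 49 H3K27me3 only, with Krt72 and Krt73 of the hair follicle on a shared island (288 against 54 reads, 6.30-fold), and 7 H3K4me3 only, among them Krt7, Krt8 and Krt18. Claudins had 10 of 23 and matrix metalloproteases and ADAMTS proteases 14 of 42 H3K4me3 only, against 3 and 8 H3K27me3 only.

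Immune families had few H3K27me3-only members: 3 of 37 chemokines and 1 of 12 Toll-like receptors, against 9 and 5 H3K4me3 only. Of the 49 genes of both families, 29 (59.2%) were in neither list, against 30.8% of all protein-coding genes. H3K4me3 only took 28.6% of the 49 and H3K27me3 only 8.16%, both below the 49.6% and 16.7% of all protein-coding genes. Cxcl5, a neutrophil chemokine gene, had H3K4me3 of 5389 against 119 reads (42.7-fold). The T cell chemokine gene Cxcl9 was both apart, with 701 against 9 H3K4me3 reads (73.4-fold) and 519 against 246 H3K27me3 reads (2.49-fold). Cytochrome P450 genes had 30 of 92 and serpins 17 of 63 H3K27me3 only, against 12 and 7 H3K4me3 only. Cyp2r1, a vitamin D hydroxylase gene, had H3K27me3 of 14045 against 2452 reads (6.76-fold) and its whole body covered, and Serpinh1, a collagen chaperone gene, had H3K4me3 of 1903 against 21 reads (85.4-fold).

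Sensory receptors made up the largest block of the H3K27me3-only class. Of 1106 olfactory receptor genes, 518 (46.8%) were H3K27me3 only, 7 H3K4me3 only, 1 both overlapping and 580 in neither list, and of 353 vomeronasal receptor genes 133 (37.7%) were H3K27me3 only. Olfactory receptors had a median fold of 2.38 and vomeronasal receptors of 2.75, against 3.22 for all H3K27me3-only protein-coding genes. Median island width was close to that of all H3K27me3-only protein-coding genes, at 28000 and 25000 bp against 26000 bp, while the receptor genes had median lengths of 945 and 990 bp against 23159 bp. The fold was below 2 in 216 of the H3K27me3-only olfactory receptors and below 1 in 46. Without both receptor families, a comparison added after the values were seen, 3595 genes were H3K27me3 only, with a median fold of 3.31 and a median length of 28782 bp. The 8 receptor genes with H3K4me3 only had a median H3K4me3 fold of 7.38, such as Olfr433 with 130 against 15 reads (8.17-fold).

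Housekeeping genes were H3K4me3 only with few exceptions. All 41 RNA polymerase II and Mediator subunits and all 21 COMPASS and H3K4 demethylase genes were H3K4me3 only, as were 80 of 83 cytosolic and 74 of 75 mitochondrial ribosomal protein genes, 37 of 39 proteasome subunits, 43 of 45 splicing factors, 50 of 56 translation initiation factors and 73 of 82 subunits of complex I, cytochrome oxidase and ATP synthase. Median H3K4me3 fold in these families was between 55.7 and 79.7. Their H3K27me3-only members included paralogs known for tissue-limited expression. Rpl39l, a ribosomal protein paralog of the testis, had 247 H3K27me3 reads against 109 (2.68-fold). Psma8, the proteasome subunit of male germ cells, had 1717 against 424 (4.78-fold), Cox8c 1896 against 884 (2.53-fold) and Cox7b2 1272 against 799 (1.88-fold). The others were Eif4e3 (5.64-fold), the predicted gene Gm8994 (1.86-fold) and the splicing factor gene Srsf12 (3.03-fold). The imprinted gene Snrpn was both apart, with 579 against 5 H3K4me3 reads and 178 against 98 H3K27me3 reads (2.15-fold), and so was Mrpl17, whose H3K27me3 reached 219 bp of its body.

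Regulators of chromatin and of the cell cycle were also mostly H3K4me3 only. Polycomb genes themselves had 24 of 27 members H3K4me3 only, including the Polycomb repressive complex 2 genes Suz12 (7536 against 50 reads, 142-fold) and Eed (6354 against 48 reads, 125-fold). Bmi1 was both overlapping, with 86 H3K27me3 reads against 3, and Phc2 both apart. Nucleoporins had 27 of 29, AP-1 and immediate early factors 20 of 21 and Zfp zinc finger genes 300 of 394 members H3K4me3 only. Of the Zfp genes 24 were H3K27me3 only, 7 overlapping and 8 apart. Cell cycle inhibitors had 9 of 12 H3K4me3 only, and the p53 relative Trp73 was both overlapping (755 against 6 H3K4me3 reads, 119-fold, and 170 against 32 H3K27me3 reads, 6.27-fold). Cyclins and their kinases had 13 of 18 H3K4me3 only. Ccna1 and Ccnb3, cyclins of germ cells, were H3K27me3 only (3.99-fold and 7.23-fold), Ccnd2 was overlapping, and Cdk8 and Ccne2 were apart. H3K27me3 on Ccne2 was below IgG (90 against 427 reads, 0.25-fold).

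Genes with both marks were the longest. Islands were read over the whole gene body, so a longer gene has more chance to be listed for H3K27me3. Median gene length was 18297 bp in the H3K4me3-only class (interval 17803-18866), 21325 bp in the H3K27me3-only class (19820-22869), 40185 bp in the overlapping class (32625-48684) and 57716 bp in the apart class (46692-69220). H3K27me3 alone was most frequent at both ends of the range. It took 31.1% of the listed genes up to 7009 bp, 18.1% of those from 7009 to 19663 bp, 20.3% of those from 19663 to 49875 bp, and 32.3% of those over 49875 bp. The shortest group held 1297 H3K27me3-only genes. Olfactory and vomeronasal receptors, with 651 H3K27me3-only genes of a median length of 948 bp, weigh on that end. The shares by length were not recomputed without them. When H3K27me3 was read only within 4 kb of the gene start, the same window as H3K4me3, the order turned and H3K27me3-only genes were shorter than H3K4me3-only genes, with a ratio of medians of 0.65 in place of 1.17. The apart class then fell from 425 to 137 genes, and its ratio of median length to H3K4me3-only genes from 3.15 to 1.73.

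NUP210 and NPC were listed more often for genes with H3K27me3 than for genes with H3K4me3 only, and the gap was wider among short genes. NUP210 is a membrane nucleoporin, and the lists give its islands over gene bodies. Of all 16701 genes 31.5% were in the NUP210 list and 28.9% in the NPC list. NUP210 was listed for 25.05% of the H3K4me3-only genes (24.3-25.8%), 46.7% of the H3K27me3-only (45.2-48.2%), 44.97% of the overlapping and 46.8% of the apart genes. For NPC the shares were 23.7%, 41.1%, 40.3% and 44.2%. Among genes up to 7009 bp, NUP210 was listed for 6.78% of the H3K4me3-only and 42.9% of the H3K27me3-only genes, and among genes over 49875 bp for 57.3% and 62.1%. With a false discovery rate (FDR) of at most 0.01 for the NUP210 islands, these values were 3.86% and 29.8%, and 46.8% and 53.8%. Of the 13204 NUP210 islands, 2004 had fewer reads than scaled IgG. The enrichment of listed genes was small, with a median fold over IgG of 1.22 for the strongest NUP210 island of listed H3K4me3-only genes and 1.27 of listed H3K27me3-only genes. Among genes up to 7009 bp these medians were 1.14 and 1.16. The short H3K27me3-only genes include olfactory and vomeronasal receptors (651 H3K27me3-only genes, median length 948 bp). Shares by length without these receptors were not computed, and the cause of the gap among short genes was not tested.

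**Figure D4:**
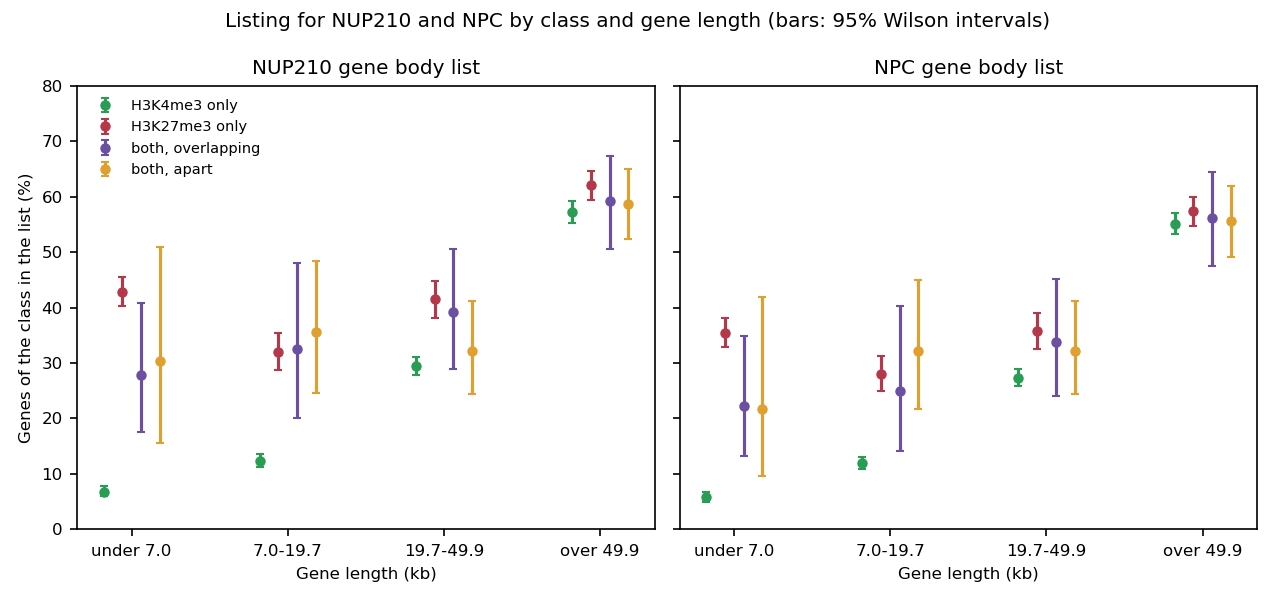
Share of the genes of each class in the NUP210 (left) and NPC (right) list by class of gene length in kb, with 95% Wilson intervals as bars. In the shortest length class NUP210 is listed for 6.78% of H3K4me3-only and 42.9% of H3K27me3-only genes, and in the longest for 57.3% and 62.1%. Olfactory and vomeronasal receptor genes are included.

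In the Nup210 KO library pair 92.9% of the 16701 genes were found in the same class. The share was 97.7% of the H3K4me3-only, 86.3% of the H3K27me3-only, 48.7% of the overlapping and 55.8% of the apart genes. Of the overlapping genes 31.5% were H3K4me3 only in KO and 14.4% were apart. Of the 16701 genes 73.5% were in the KO list of H3K4me3 and 25.8% in that of H3K27me3. In sg-Ctrl, from whose lists these genes were taken, the shares were 74.6% and 29.8%, and genes listed in KO alone are not counted. The whole H3K27me3 list held 4971 genes in sg-Ctrl and 5116 in KO, and the whole H3K4me3 list 12453 and 12437. The KO libraries of H3K27me3 and H3K4me3 were 3.16 and 1.27 times as deep as those of sg-Ctrl, so genotype, depth and library cannot be told apart here.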

How the data were processed

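Per the labels, chromatin of 4T1 cells was sheared enzymatically, and the authors ran SICER on each library with IgG as the control, using a 200 bp window for H3K4me3 and a 1000 bp window for broad targets. The labels' processing notes name Bowtie2, Picard, STAR and Trimmomatic, and the builds mm9, mm10 and NCBIM37, without roles. Of the H3K27me3 genes matched to RefSeq GRCm38.p6, 87.8% had a listed end within 50 bp of an annotated one, so coordinates are those of GRCm38 (mm10). The deposited lists hold, for each peak, raw counts of reads from ChIP and from IgG, the p-value and the FDR. They also hold the ratio of ChIP to IgG after scaling to library size, called fold here. For peaks without IgG reads the authors' fold uses 0.25 reads.

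Entries repeating a peak were collapsed. A gene's fold is that of its strongest peak, H3K4me3 width is summed over its peaks, and H3K27me3 cover is the union of islands within the gene body. Gene length is that of the longest listed transcript. Gene names were matched to RefSeq for 16668 of 16701 symbols, and family members are protein-coding genes whose current symbol has the family's name pattern. Promoters were used when their start lay within 500 bp of a listed start. Shares carry Wilson intervals and medians order-statistic intervals, at 95%, with no correction for genes sharing peaks. Total library depth is unknown beyond the reads in peaks and the library ratios. Each condition had 1 library, so no test was run.

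The genes named are the 5 widest and the 5 of highest fold with at least 100 ChIP reads in each class (for genes with both marks, by longest overlap or H3K27me3 cover and by the smaller fold), the cell type markers, and at most 4 members of a family in each class, those of highest fold. A few genes that these rules name are not reported here. The classes, families and markers were chosen with earlier results of these data known. No values of the 4 RNA-seq samples were used, and the 3 IgG samples entered only through the IgG reads of the lists. The code for the classes was run on simulated data, where 4000 of 4000 genes were placed in their class. That run checks the code alone, and the classes of the listed genes were not tested by it. Tables were computed in pandas 2.3.3 and numpy 2.4.6 under Python 3.11.15, intervals in scipy 1.17.1, and plots in matplotlib 3.10.9.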

Additional observations from a re-analysis of the deposited data

How the results depend on the processing

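Recomputing 17 results under 11 alternative settings, 2 of them chosen after seeing the data, gave 132 values. Of these, 117 stayed within 1.5 times the reported count or within the interval of the reported value, and 1 turned its direction. With islands within 4 kb of the start alone, the apart class had 137 genes, 68.2% of the genes with both marks had overlapping peaks, and the ratio of median lengths to H3K4me3-only genes was 1.73 for apart genes and turned to 0.65 for H3K27me3-only genes. With at least 50% of the H3K4me3 peak shared, 29.9% of the genes with both marks overlapped, and H3K4me3-only peaks were 2.38 times as wide as those of overlapping genes, in place of 1.90. With folds of at least 2, the length ratio of H3K27me3-only genes was 1.30, and their share listed for NUP210 exceeded that of H3K4me3-only genes by 16.3 percentage points and for NPC by 12.5, in place of 21.7 and 17.4. With an FDR of at most 0.01 for NUP210 and NPC islands, these differences were 17.9 and 11.5. The settings added later gave a ratio of median H3K4me3 fold, H3K4me3 only over overlapping, of 2.05 for peaks with at least 10 IgG reads, in place of 1.65. Without olfactory and vomeronasal receptors, the length ratio was 1.57 and the NUP210 and NPC differences 18.2 and 14.6. The cause of these shifts was not tested. The comparison of CpG content with GC content over whole classes was not run, because too few genes had a promoter sequence.

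With 1 library for each mark, leaving out replicates was not possible, and no value here carries the difference between cultures. No paired analysis was possible because the classes rest on 1 library for each mark, and the RNA-seq samples, which share replicate numbers, were not analysed here.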

Other observations

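Islands over several genes add a further view of the H3K27me3-only genes. Of 9555 H3K27me3 islands, 92.0% met 1 gene, 6.39% met 2 genes and 1.60% met 3 or more. A single island of 250000 bp at chr10:23898001-24148000 (11913 against 3586 reads, 3.92-fold) met 16 genes, 15 of them trace amine-associated receptors (Taar), most of which act as olfactory receptors for amines, and the other the pantetheinase gene Vnn1. Another of 166000 bp at chr2:164186001-164352000 (7016 against 1777 reads, 4.66-fold) met 9 genes of seminal vesicle secretion (Svs2 to Svs6) and of the Wfdc protease inhibitors. The island over the Ugt1a cluster of glucuronidation enzymes, at chr1:88213001-88242000, met 9 genes with a fold of 1.03 (1263 against 1442 reads). Genes and islands were named here after their values were seen.

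The share of listed genes with any H3K27me3 was lowest on chromosome 4, at 18.8% of 940 genes (95% Wilson interval 16.5-21.5%), and highest on chromosome 6, at 40.3% of 921 genes (37.2-43.5%). Chromosome X had 39.5% of 532 genes (35.4-43.7%), and the share over all 16701 listed genes was 29.8%.

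Between the sg-Ctrl and the KO lists, 12 genes (0.10% of the H3K4me3-only class) went from H3K4me3 only to H3K27me3 only. The other way went 14 genes (0.33% of the H3K27me3-only class). Among the first were Postn, which encodes the matrix protein periostin (77 H3K4me3 reads in sg-Ctrl) and the G protein gene Gng2 (1109 reads). Besides Gng2, the genes of this first group had at most 199 H3K4me3 reads (Dyx1c1), against a median of 2193.5 in the H3K4me3-only class. Among the second were Lrp4, a receptor of the neuromuscular junction (5958 H3K27me3 reads in sg-Ctrl), Lifr, the receptor gene of leukemia inhibitory factor (1543 reads), and the sterol transporter genes Abcg5 and Abcg8 (166 and 107 reads). Reads are those of the whole strongest peak or island, also where it reaches beyond the gene. The reads and fold of Lrp4 (3.63-fold) were also those of 1110051M20Rik, whose widest island was 144000 bp, so they need not be of Lrp4 alone. With 1 library for each condition these switches have no replicate check, and the KO libraries were also deeper, as given above.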
